A study of Mus musculus with 3 samples.

Results

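Mcpt8, Prss34, Cpa3, Fcer1a, Cma1, Prg2 and Epx encode granule proteins, and for Fcer1a a receptor chain, by which basophils, mast cells and eosinophils are recognised, and they are 7 of the 32285 genes in the deposited table. They were taken by symbol, and their raw UMI counts (unique molecular identifiers, counted RNA molecules) were read in 37188 of 39092 cell barcodes, those with at least 500 UMIs, at least 200 genes and at most 20% mitochondrial UMIs. Their levels across cell types and their detection in the same cells were what chose them, so both are given here as a description, with no test.

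Single-cell RNA was sequenced by the 10x 3′ method from cochleae of C57BL/6J mice. It has 1 library of 6 mice each for NIHL (hearing loss induced by noise, at 115 dB on 3 days, 4 h each), HHL (hidden hearing loss, after 2 h of noise at 110 dB) and control (no noise, otherwise the same conditions). The cochlea was taken 6 h after the last exposure. All cells stand in 1 table, and the barcode suffix that marks a library (1, 2 or 3) is tied to no group by any label. The libraries are therefore called library 1, 2 and 3, are compared with each other only as libraries, and carry no p-value. They kept 16883, 9602 and 10703 cells with a median of 5464, 6293.5 and 8098 UMIs. Libraries 1 and 2 share 46 barcode sequences, 1 and 3 share 53, and 2 and 3 share 31. Of the cells in the basophil gate described below, 2 had such a barcode.

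Basophils and mast cells carry the high-affinity IgE receptor, and when antigen cross-links it they release granules that hold histamine, proteoglycan and serine proteases. Eosinophil granules hold cationic proteins and a peroxidase instead. In the mouse, Mcpt8 and Prss34 are serine proteases of basophils, Cma1 is a chymase of mast cells, Cpa3 is a metallocarboxypeptidase that both cell types store, Fcer1a is the IgE-binding alpha chain of the receptor, Prg2 is the major basic protein of eosinophil granules and Epx is the eosinophil peroxidase. All of these cells arise in bone marrow from progenitors that carry Kit and Cd34, and marrow lies in the bone that encloses the cochlea.

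Cells were sorted into 22 gates by lists of marker genes, none of which holds any of the 7 genes, and a gate name means a cell like that type. The basophil gate used Cd200r3, Il4, Cyp11a1, Ms4a2, Hdc, Grm6, Csrp3 and Gata2, so these 8 genes are not findings about it. It held 310 cells, 129 in library 1 (0.764% of its cells), 86 in library 2 (0.896%) and 95 in library 3 (0.888%), with a median depth of 6218 UMIs. The mast cell gate held 2 cells and the eosinophil gate 6. Cells like each of the 3 types that the genes are named for were thus found, but in very unequal numbers. Of the 6 cells in the eosinophil gate 2 were called doublets.

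Promoters are printed for the 4 genes that were high in the basophil gate, because they were detected in the same cells. They run from 250 bases before to 50 bases after the annotated start, 5′ to 3′ on the gene's strand, from RefSeq on GRCm38.p6, which is not the build of the counts. GATAA, the core that GATA factors bind, is in capitals on either strand (TTATC is its complement).
Mcpt8, chr14:56085148-56085447, minus strand: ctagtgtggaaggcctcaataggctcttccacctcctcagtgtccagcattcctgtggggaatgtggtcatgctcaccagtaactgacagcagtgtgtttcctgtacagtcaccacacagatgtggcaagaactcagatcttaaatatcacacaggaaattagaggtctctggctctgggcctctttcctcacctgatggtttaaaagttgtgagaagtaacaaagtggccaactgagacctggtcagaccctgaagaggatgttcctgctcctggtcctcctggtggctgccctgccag
Prss34, chr17:25298144-25298443, plus strand: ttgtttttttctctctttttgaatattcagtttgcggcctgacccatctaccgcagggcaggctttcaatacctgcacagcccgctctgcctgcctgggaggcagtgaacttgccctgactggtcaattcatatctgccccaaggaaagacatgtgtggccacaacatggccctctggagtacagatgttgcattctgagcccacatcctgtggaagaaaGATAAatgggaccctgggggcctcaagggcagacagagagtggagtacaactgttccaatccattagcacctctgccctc
Cpa3, chr3:20242132-20242431, minus strand: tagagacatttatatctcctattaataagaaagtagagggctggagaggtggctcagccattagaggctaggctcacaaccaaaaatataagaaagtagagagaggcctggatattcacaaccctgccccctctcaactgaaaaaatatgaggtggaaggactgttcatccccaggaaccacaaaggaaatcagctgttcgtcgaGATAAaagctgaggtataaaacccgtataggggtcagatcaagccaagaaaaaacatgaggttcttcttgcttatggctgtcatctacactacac
Fcer1a, chr1:173227180-173227479, minus strand: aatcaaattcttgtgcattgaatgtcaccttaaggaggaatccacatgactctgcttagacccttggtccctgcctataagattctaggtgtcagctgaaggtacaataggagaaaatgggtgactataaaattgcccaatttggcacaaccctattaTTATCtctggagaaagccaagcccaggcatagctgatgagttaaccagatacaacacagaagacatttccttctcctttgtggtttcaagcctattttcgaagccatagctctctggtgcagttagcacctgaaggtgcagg
GATAA stood 30 bases before the start in Prss34 and 45 bases before it in Cpa3. In Fcer1a its complement began 92 bases before the start, and Mcpt8 had no match in this window. Of the 6 genes of the set with a promoter in the table, 4 held GATAA or its complement (Cma1 was the fourth), against 25.4% of all 32851 promoters of this length. TGTGG, the core that RUNX factors bind, or its complement CCACA was in 6 of 6, against 55.9% of all promoters. The motifs were searched on both strands and do not overlap each other. Gata2 is a marker of the gate, and Runx1 had 613 CPM (counts per 1000000 UMIs) in the basophil gate, against 112 CPM in all other cells. A match of letters does not show that a factor binds there.

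Mcpt8, Prss34, Cpa3 and Fcer1a were far higher in the basophil gate than in the rest of the cells. Mcpt8 stood at 12879 CPM in the basophil gate and 15.9 CPM in all other cells, an 810-fold difference (95% interval 788 to 833). Prss34 stood at 16901 CPM in the gate and 16.4 CPM elsewhere (1033-fold, 1005 to 1062). Cpa3 stood at 2797 CPM in the gate and 5.55 CPM elsewhere (504-fold, 479 to 530), and Fcer1a at 448 CPM in the gate and 0.372 CPM elsewhere (1205-fold, 1007 to 1451). The intervals are exact binomial ones and cover counting error only, not differences between cells, mice or dissections. Among 18690 genes with at least 20 UMIs, 713 (3.81%) were at least 4-fold higher in the gate, and these 4 genes ranked 5, 3, 13 and 1 by fold. The ranks go with the choice of the genes and support nothing further. Counts of 3′ tags are not compared between genes as amounts of RNA.

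The gate held 83.9% of all Mcpt8 UMIs, 86.9% of Prss34, 76.4% of Cpa3 and 88.6% of Fcer1a. Mcpt8 had a UMI in 89.7% of gate cells (85.7 to 92.8), Prss34 in 80.3%, Cpa3 in 93.9% and Fcer1a in 52.3%. Within the gate the levels varied widely from cell to cell. Mcpt8 ranged from 0 to 690 UMIs with a median of 55, Prss34 from 0 to 644 with a median of 82, Cpa3 from 0 to 122 with a median of 14 and Fcer1a from 0 to 31 with a median of 1. In the cell with the highest share, Mcpt8 took 5.36% of all UMIs of that cell.

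**Figure D1:**
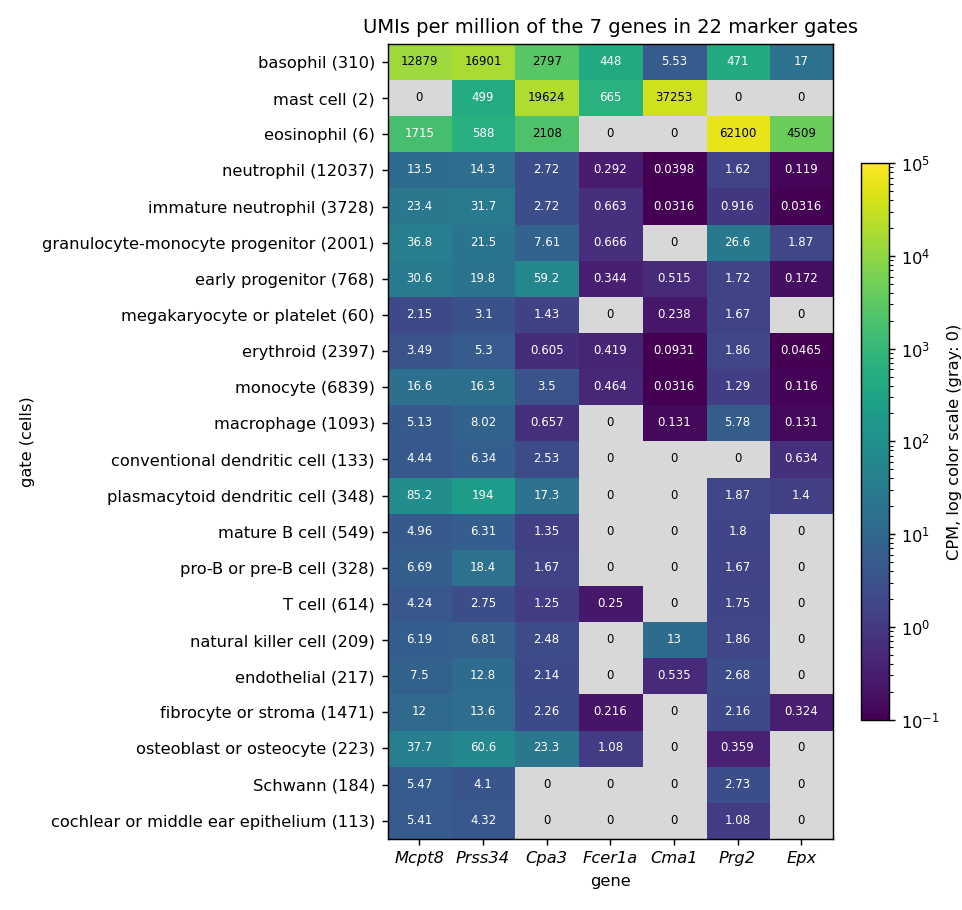
CPM of the 7 genes, in columns, in the 22 gates, in rows, with libraries summed, cells per gate in brackets and a log color scale. Mcpt8, Prss34, Cpa3 and Fcer1a are high in the basophil row (12879, 16901, 2797 and 448), Cma1 and Cpa3 in the mast cell row, and Prg2 and Epx in the eosinophil row (62100 and 4509).

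Mcpt8 and Prss34 varied together from cell to cell. Across the 310 gate cells the Spearman correlation of their shares of a cell's UMIs was 0.92, and 0.88 after each cell was thinned to 1000 UMIs. The cells share library and depth, and the value is a description. The correlation of Mcpt8 was 0.67 with Cpa3 and 0.46 with Fcer1a (0.54 and 0.33 when thinned), lower than that between the proteases. These 2 genes also had fewer UMIs, with a median of 14 for Cpa3 and 1 for Fcer1a, against 55 for Mcpt8 and 82 for Prss34. Fcer1a had no UMI in 148 gate cells. The part of sparse counts in the lower correlations was not tested.

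Most cells with a protease UMI had just 1, whereas the cells rich in either protease were mostly rich in the other. Mcpt8 was seen in 2021 cells, and 75.9% of them had just 1 UMI. The 309 cells with at least 5 held 94.6% of all its UMIs. Prss34 was seen in 1816 cells, 283 of them with at least 5. At the level of any UMI, 393 cells had both proteases, which is 19.4% of Mcpt8 cells and 21.6% of Prss34 cells. At 5 UMIs or more, 270 cells had both, 87.4% of the Mcpt8 cells and 95.4% of the Prss34 cells.

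Cells with Fcer1a held the other basophil genes far more often than cells at large. Of 211 cells with a UMI of Fcer1a, 182 (86.3%, 80.9 to 90.6) also had Mcpt8, 176 (83.4%) had Cpa3 and 165 (78.2%) had Prss34. Among all cells Mcpt8 was present in 5.43%, Cpa3 in 2.0% and Prss34 in 4.88%. All 4 genes were found together in 159 cells, of which 141 were in the basophil gate. Exactly 3 were found in 150 cells (109 in the gate), exactly 2 in 220 (31 in the gate) and exactly 1 in 3265 (27 in the gate).

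**Figure D2:**
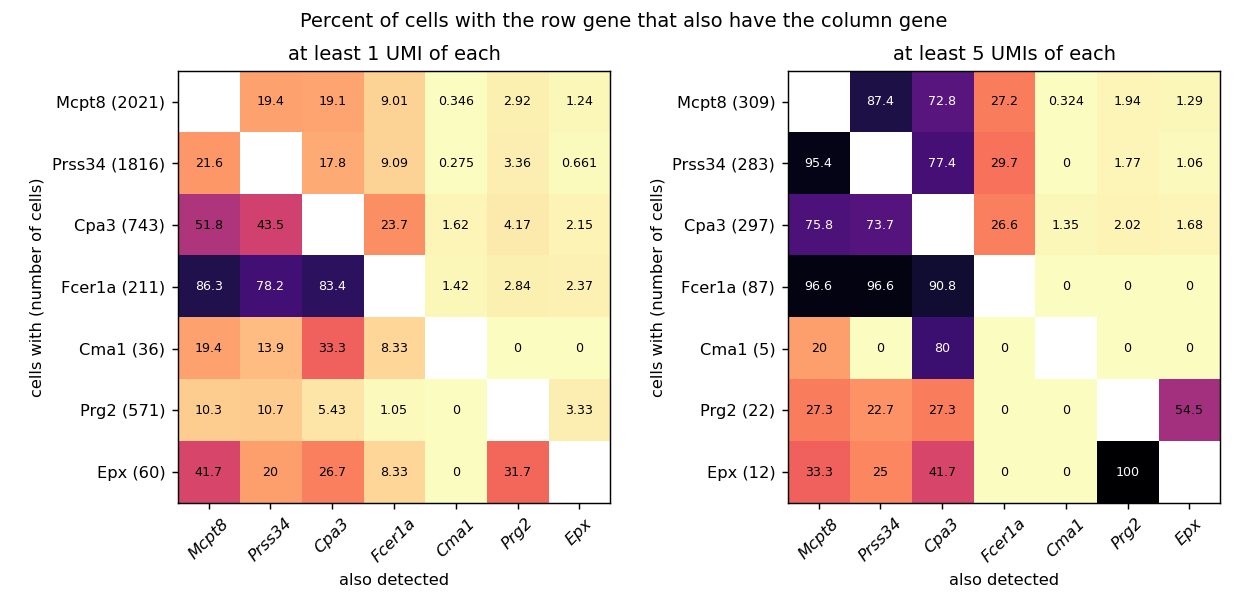
Percent of cells with the gene of the row that also had the gene of the column, at 1 UMI or more of each (left) and at 5 UMIs or more (right), with the number of cells per row gene in brackets. The block of Mcpt8, Prss34 and Cpa3 fills in at the higher cutoff (87.4% of Mcpt8 cells with Prss34, against 19.4% at 1 UMI). Cma1 shares no cell with Prg2 or Epx at either, but it was in just 36 cells at 1 UMI and 5 at 5 UMIs. Over all cells Prg2 was in 1.54% and Epx in 0.161%, so so few Cma1 cells cannot show that the genes keep apart.

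The genes whose detection was most like that of the 4 basophil genes came out nearly the same for each. Likeness was the phi coefficient of detection over 37188 cells, among 16624 genes seen in at least 50 cells. The places given here and below leave out the genes of the set, some of which came above a listed gene. Mcpt8 and Cpa3 had a phi of 0.292 with each other. Cd200r3, a receptor of the CD200R family on basophils and mast cells, was the nearest for all 4, with phi of 0.33 for Mcpt8, 0.32 for Prss34, 0.55 for Cpa3 and 0.62 for Fcer1a. Cyp11a1, a steroid-synthesis enzyme, was the next for all 4 (0.32, 0.31, 0.54 and 0.58). Csrp3 was the third for Mcpt8, Prss34 and Cpa3 (0.27, 0.26 and 0.48), and Alox15, a lipoxygenase, the third for Fcer1a (0.48). Cd200r3, Cyp11a1 and Csrp3 are basophil gate markers, and Alox15 stands in the eosinophil list.

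**Figure D3:**
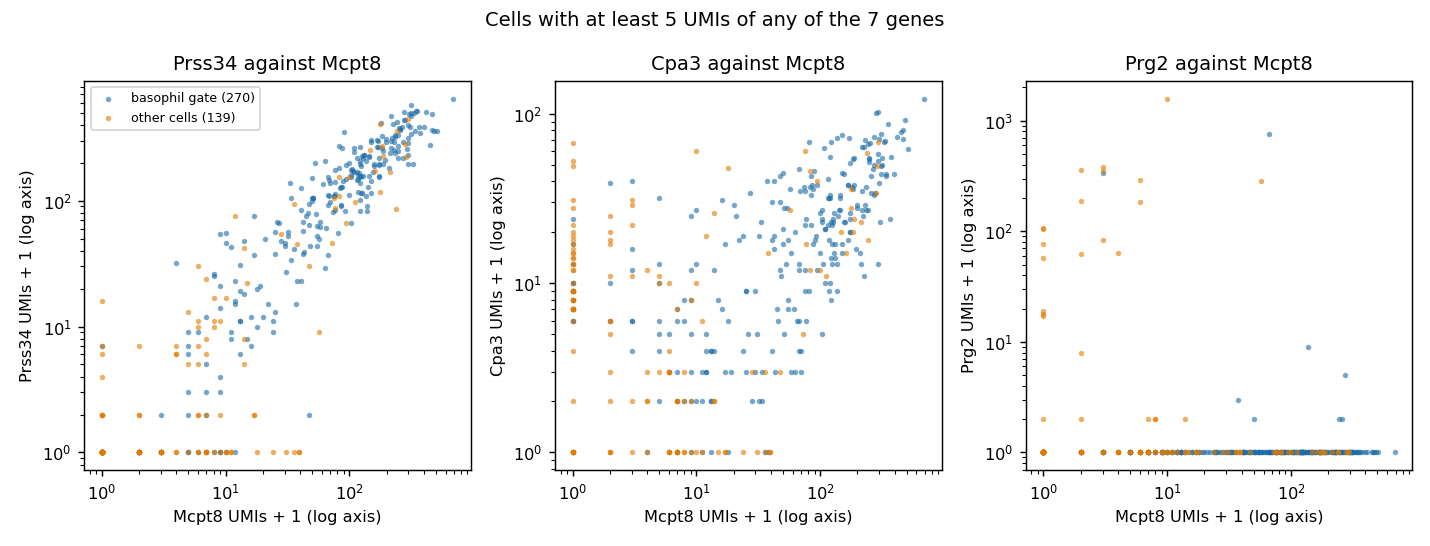
Each point is 1 of the 409 cells with at least 5 UMIs of any of the 7 genes, with UMIs + 1 on log axes, blue for the 270 cells of the basophil gate and orange for the other 139. Prss34 follows Mcpt8 along a diagonal, Cpa3 has an arm of cells without Mcpt8, and the cell with the most Prg2 (1579 UMIs) has 9 UMIs of Mcpt8 while the next (757) has 66.

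Outside the basophil gate Mcpt8 and Prss34 RNA was found at a low level in each group of cells given next. Free RNA as its source was not tested. Fcer1a was not found in every group, with 0 UMIs in macrophage-like cells. The values outside that gate given next leave out every cell with at least 5 UMIs of any of the 7 genes. Mcpt8 stood at 4.14 CPM in neutrophil-like cells, 4.37 in monocyte-like, 4.80 in lymphoid, 3.45 in erythroid, 5.13 in macrophage-like and 3.77 in non-blood cells (endothelial, stromal, bone, Schwann and epithelial). Prss34 stood at 8.02 CPM (6.13 to 10.3) in macrophage-like cells and between 3.79 and 5.26 CPM in the other 5. In non-blood cells, which should lack it, 2.68% had a Mcpt8 UMI at a median depth of 5092 UMIs, and 3.27% a Prss34 UMI. In the basophil gate there were 1.31 Prss34 UMIs per Mcpt8 UMI (1.29 to 1.33). The ratio was 1.24 (0.877 to 1.76) in non-blood, 1.16 (1.02 to 1.32) in neutrophil-like, 1.04 (0.689 to 1.57) in lymphoid 1.53 (1.13 to 2.08) in erythroid and 1.56 (1.03 to 2.40) in macrophage-like cells, and each of these intervals overlaps that of the basophil gate. Monocyte-like cells were somewhat lower at 0.867 (0.750 to 1.001).

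Granulocyte-monocyte progenitor-like cells (gated on Mpo, Elane, Prtn3, Ctsg, Ms4a3 and Nkg7) had a lower ratio. They had 14.8 CPM of Mcpt8 but 3.10 CPM of Prss34, and thus 0.21 Prss34 UMIs per Mcpt8 UMI (0.167 to 0.262). The ratio was 0.21 in library 1, 0.21 in library 2 and 0.21 in library 3, with Mcpt8 at 14.7, 12.0 and 15.997 CPM. Mcpt8 had a UMI in 18.5% of these cells against 2.68% of non-blood cells, at median depths of 13863.5 and 5092. Thinned to 1000 UMIs the shares were 1.76% and 0.139%. Early progenitor-like cells, described next, also had a lower ratio, at 0.449 (0.307 to 0.647) with Mcpt8 at 9.02 CPM and Prss34 at 4.05 CPM, and it was 0.281, 0.276 and 0.73 in libraries 1, 2 and 3. Ctsg, a marker of this gate, is the next protein-coding gene beside Mcpt8 on chromosome 14 in the RefSeq order and was the more abundant of the 2 by far, with 152569 UMIs against 36097 in all cells. How reads that fit more than 1 gene were divided is not given in the sources used here, so the Mcpt8 level in these Ctsg-rich cells is uncertain.

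Early progenitor-like cells (Cd34, Cd27, Flt3, Adgrl4, Hlf, Meis1 and Angpt1) stood out for Cpa3. Those with under 5 UMIs of every gene of the set had 1.16 Cpa3 UMIs per Mcpt8 UMI, against 0.217 in the basophil gate and 0.177 in non-blood cells. The value was 1.38 in library 1, 1.24 in library 2 and 0.919 in library 3. Of the 297 cells with at least 5 Cpa3 UMIs, 38 (12.8%) were early progenitor-like, against 218 (73.4%) in the basophil gate. Over the whole gate Cpa3 had a UMI in 108 of 768 early progenitor-like cells and stood at 59.2 CPM, while Fcer1a stood at 0.344 CPM there and at 448 CPM in the basophil gate. With the cells of 5 UMIs or more left out, Cpa3 was still at 10.5 CPM (8.65 to 12.6) in early progenitor-like cells, against 0.669 CPM (0.334 to 1.20) in non-blood cells, and Fcer1a had 0 UMIs, against 0.243 CPM in non-blood cells.

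Within the basophil gate the cells with a UMI of Kit or Cd34, surface proteins of immature blood cells, had lower levels of all 4 genes. This split was chosen after the values were seen. Kit is also a marker of the mast cell gate, so the split need not be one of immature cells alone. Cma1, the mast cell chymase, had 11 UMIs (12.2 CPM) in the cells with Kit or Cd34 and 2 UMIs (1.38 CPM) in those without. The part of mast cell-like cells in the difference was not tested. Mcpt8 was at 6931 CPM in the 72 cells with Kit or Cd34 and at 16595 CPM in the 238 without. Prss34 was at 8461 and 22174 CPM, Cpa3 at 2202 and 3169 CPM and Fcer1a at 222 and 589 CPM, with the cells that had Kit or Cd34 given first. The intervals of the groups did not overlap for any of the 4 genes when libraries were summed. They cover the counting error of summed UMIs only, not the spread between cells.

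By library, Mcpt8 was at 8750, 7441 and 5655 CPM in the cells with Kit or Cd34 and at 16109, 19921 and 14244 CPM in those without, in libraries 1, 2 and 3. Prss34 was at 10812, 7522 and 7919 CPM with, and at 20865, 25753 and 20666 CPM without. Both proteases were lower in the cells with Kit or Cd34 in 3 of 3 libraries. Fcer1a was at 341, 320 and 94.9 CPM with, and at 559, 951 and 303 CPM without, again lower in 3 of 3. Cpa3 was at 2365, 2503 and 1912 CPM with, and at 2532, 4098 and 3162 CPM without, and in library 1 its intervals overlapped (2161 to 2583 with, 2405 to 2664 without).

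The cells with Kit or Cd34 were deeper, at a median of 11699 UMIs against 4905.5, and a deeper cell is more likely to show a rare gene. Among gate cells with at least 5000 UMIs, a limit also chosen after the values were seen (71 with and 116 without, median depths 11714 and 8807.5) the values were 6953 and 18729 CPM for Mcpt8, 8454 and 25157 CPM for Prss34, 2202 and 3666 CPM for Cpa3 and 223 and 644 CPM for Fcer1a. The groups still differed in depth, and the part of depth in the difference was not tested. Mki67, a gene of dividing cells, stood at 411 CPM (371 to 455) in the cells with Kit or Cd34 and at 435 CPM (401 to 470) in those without, so its intervals overlap.

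**Figure D4:**
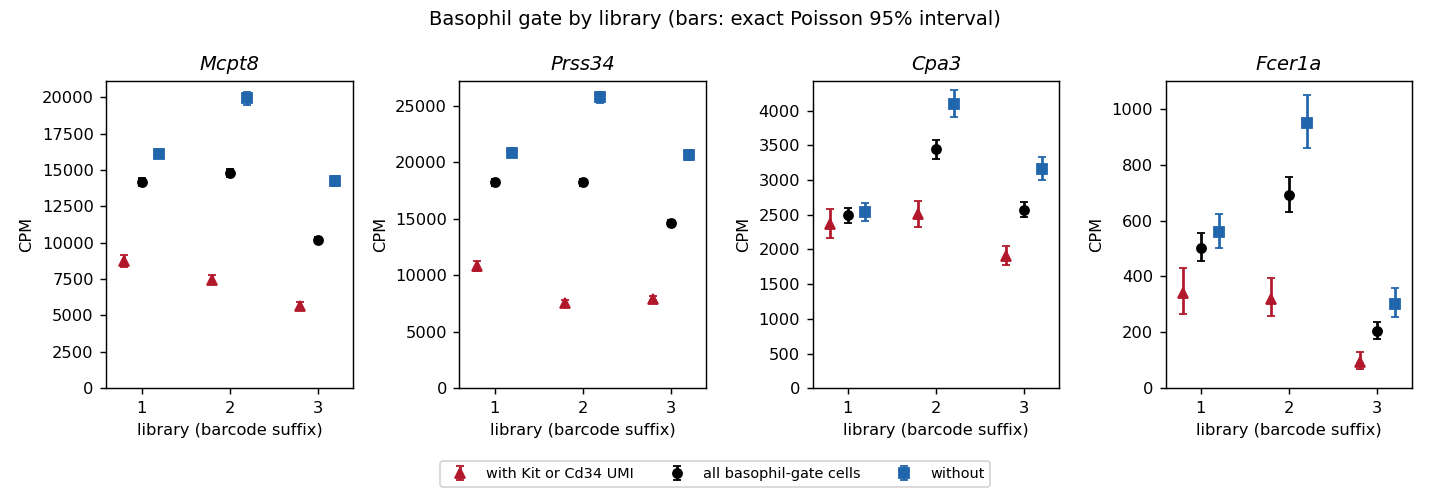
CPM of 4 genes in the basophil gate by library, for cells with a Kit or Cd34 UMI (red triangles), all gate cells (black circles) and cells without (blue squares), with exact Poisson 95% intervals. Mcpt8, Prss34 and Fcer1a lie lower in cells with Kit or Cd34 in each library, and Fcer1a is lowest in library 3 in every subset.

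Between libraries, the summed UMIs of the proteases in the basophil gate differed little and those of Fcer1a differed more. Mcpt8 was at 14183, 14780 and 10157 CPM in libraries 1, 2 and 3, Prss34 at 18234, 18243 and 14600 CPM, and Cpa3 at 2488, 3441 and 2567 CPM. The highest library exceeded the lowest 1.46-fold for Mcpt8, 1.25-fold for Prss34 and 1.38-fold for Cpa3. Of 8302 genes with at least 20 UMIs in the gate, 1725 (20.8%) were at least 2-fold apart between the highest and lowest library, and larger ratios than those of these 3 genes were had by 56.9%, 81.4% and 65.2% of genes. Per cell the order was another one. The median share of a gate cell's UMIs was 1.19%, 0.444% and 0.650% for Mcpt8 in libraries 1, 2 and 3, and 1.61%, 0.780% and 1.18% for Prss34. For Cpa3 it was 0.194%, 0.216% and 0.199%. Prss34 had a UMI in 86.0%, 72.1% and 80.0% of gate cells.

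Fcer1a was at 502 CPM (454 to 554) in library 1, 691 (630 to 756) in library 2 and 204 (175 to 236) in library 3. The intervals, which do not cover the spread between cells, do not overlap between any of the libraries. Library 2 exceeded library 3 by 3.39-fold (2.85 to 4.05), and 4.59% of genes had a larger ratio. It was found in 52.7%, 65.1% and 40.0% of gate cells, although the median depth was lowest in library 1 (5428, 6818 and 7775 UMIs). Ms4a2, the beta chain of the receptor and a gate marker, did not share this order, at 1302, 940 and 1075 CPM. Fcer1g, the signalling gamma chain, was also highest in library 2, at 1334, 1602 and 1380 CPM. Its intervals in libraries 1 and 3 overlap (1255 to 1417 and 1302 to 1460). The gate markers Cd200r3 (748, 552 and 421 CPM), Hdc (1431, 1425 and 972 CPM) and Gata2 (1835, 1303 and 1044 CPM) were also lowest in library 3. Il4, another gate marker, was lowest in library 1 (61.5, 155 and 79.9 CPM).

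Library 3 also held the largest share of gate cells with Kit or Cd34, at 16.3%, 23.3% and 32.6% in libraries 1, 2 and 3. Among gate cells without Kit or Cd34 Fcer1a still differed, at 559, 951 and 303 CPM. Among gate cells with Cd200r3, a split chosen after the values were seen, it was at 568, 844 and 242 CPM. Genes taken as a sign of free RNA also differed between the libraries. In the basophil gate Hbb-bs, a hemoglobin gene, stood at 33.9, 6199 and 4511 CPM. S100a8, a neutrophil gene, stood at 5101, 1099 and 4248 CPM. These UMIs were not spread evenly over cells. S100a8 had a median of 8 UMIs over gate cells but 1505 in the highest cell. Among gate cells without Kit or Cd34, Hbb-bs in library 3 stood at 2034 CPM. The part of free RNA in the Fcer1a difference was not tested.

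The other genes of the IgE receptor route were, for the most part, not particular to the basophil gate. Of the 12 genes of the receptor complex and its first signalling steps, 4 were at least 4-fold higher in the gate than in all other cells and none at least 4-fold lower, against 3.81% and 5.25% of all 18690 genes. The median over the list was 1.72-fold, and the median of all genes was 1.0, with 6738 of them at under 3 UMIs in the gate. Besides Ms4a2 the higher genes were the adaptors Lat2 (217 CPM in the gate, 22.3 elsewhere) and Lat (69.3 and 8.90 CPM) and the kinase Fyn (96.1 and 23.6 CPM). Fcer1g stood at 1430 CPM in the gate and 849 CPM elsewhere, and Btk, a kinase, at 88.9 and 50.8 CPM. The kinases Lyn (74.0 CPM in the gate, 148 elsewhere) and Syk (66.8 and 88.5 CPM) were lower in the gate, by less than 4-fold.

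Among granule proteases and tryptases other than the 7 genes, 5 of 11 had enough UMIs and 3 were at least 4-fold higher in the basophil gate. The share over all genes was 3.81%. Ctsg, cathepsin G, had 1731 CPM in the gate and 406 CPM elsewhere. Gzmb, granzyme B, had 85.5 CPM over the whole gate, with a UMI in 16.8% of its cells, and 6.56 CPM elsewhere. Gzmc, granzyme C, had 23.0 and 0.0793 CPM, on 54 UMIs in 6.45% of gate cells. The mast cell protease Mcpt4 and the tryptases Tpsb2 and Tpsab1 had 0 UMIs in the gate, where 3 UMIs would be 1.28 CPM, and Cma2 and Tpsg1 had 1 each.

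Genes of histamine and of the granule matrix were higher in the gate for 4 of 7 (1 of them, Hdc, is a gate marker), against 3.81% of all genes. The list median was 5.53-fold. Slc18a2, the transporter that loads amines such as histamine into vesicles, stood at 358 CPM in the gate and 3.04 CPM elsewhere. Cd63, a granule membrane protein used as a sign of degranulation, stood at 1834 and 228 CPM, and Ndst2, an enzyme of heparin synthesis, at 63.4 and 11.5 CPM. Srgn, the core protein of granule proteoglycan, stood at 3057 CPM in the gate and 764 CPM elsewhere, just under 4-fold. Of 8 lipid mediator genes 2 were higher and 1 lower, against 3.81% and 5.25% of all genes. Alox15 (85.5 and 0.150 CPM) and Alox5 (291 and 44.8 CPM) were higher, and Ptgs1 was lower (8.51 and 43.5 CPM). Alox5ap, the partner of Alox5, was at 946 and 538 CPM, and Ptgs2 at 67.6 and 22.8 CPM.

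Of the cytokine and chemokine list 7 of 9 genes with enough UMIs were at least 4-fold higher in the gate, 1 of them the marker Il4, with a median of 49.4-fold. Over all genes 3.81% were that much higher. Ccl4 was at 3235 CPM in the gate and 65.5 CPM elsewhere, Ccl3 at 1749 and 31.7 CPM, Il6 at 415 and 7.86 CPM and Osm at 273 and 36.8 CPM. Of 9 cytokine receptors 4 were higher, against the same 3.81%. Il1rl1, the receptor of IL-33, was at 167 and 8.32 CPM, and Il3ra, the alpha chain of the receptor of IL-3, at 157 and 19.4 CPM. Csf2rb, the shared beta chain, was at 345 and 90.5 CPM and Crlf2, the receptor of TSLP, at 134 and 46.5 CPM, which is under 4-fold for both. Of 12 transcription factors 4 were higher and 2 lower, against 3.81% and 5.25% of all genes. The higher ones were Gata2, which is a gate marker, Runx1, Ikzf2 (421 CPM in the gate, 14.9 elsewhere) and Cebpa (160 and 20.6 CPM). The lower ones were Cebpe, a factor of granulocytes, at 14.9 CPM in the gate and 124 CPM elsewhere, and Irf8, at 21.7 and 167 CPM. Xbp1 was at 170 and 116 CPM, which is under 4-fold.

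**Figure D5:**
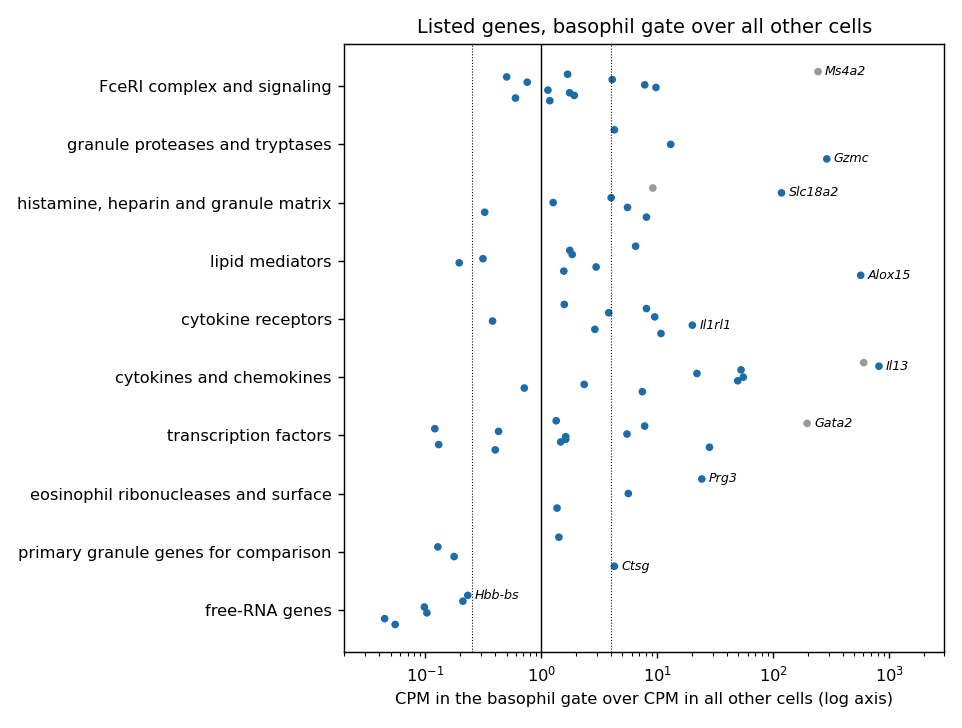
Ratio of CPM in the basophil gate to CPM in all other cells for listed genes with at least 20 UMIs in all and at least 3 in the gate, on a log axis, by list, with gate markers in gray and dotted lines at 4-fold in either direction. Chemokines and cytokines lie to the right (median 49.4-fold over the list). Between the dotted lines are 8 of the 12 IgE receptor and signalling genes. The 6 genes taken as a sign of free RNA all lie to the left.

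Of the 4 genes compared as markers of primary granules, Ctsg was higher in the basophil gate, Elane (158 CPM in the gate, 1234 elsewhere) and Prtn3 (294 and 1664 CPM) were lower by at least 4-fold, and Mpo was at 1533 and 1083 CPM. All 6 genes taken as a sign of free RNA were at least 4-fold lower in the gate, against 5.25% of all genes. S100a9 was still seen in 99.7% of gate cells, at 3992 CPM against 38822 CPM elsewhere, S100a8 at 3612 and 36929 CPM, Hbb-bs at 3490 and 15063 CPM and Hba-a1 at 1419 and 6752 CPM.

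Outside the basophil gate, 67 of the 309 cells with at least 5 Mcpt8 UMIs were found, of which 13 were called doublets. They were deeper (median 18021 UMIs) than the 242 in the gate (7029), of which 9 were called doublets. The 20 in the monocyte gate and 16 in the progenitor gate were the most, with a median of 9 and 16 Mcpt8 UMIs against 92.5 in the basophil gate. The plasmacytoid dendritic cell gate owed its 85.2 CPM of Mcpt8 and 194 CPM of Prss34 to 1 cell with 177 and 405 UMIs of them.

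The mast cell genes rested on 2 cells. Cma1, the chymase, had 143 UMIs in a cell of library 2 and 81 UMIs in a cell of library 3, together 80.6% of its 278 UMIs. Both were in the mast cell gate, with 179 and 120 UMIs of Mcpt4 and 77 and 61 UMIs of Tpsb2, which are gate markers. Cpa3 had 66 and 52 UMIs in them, Fcer1a 0 and 4, and Mcpt8 0 in both. Library 1 had no cell in this gate, and 0 of 16883 cells allows a share of up to 0.0178%.

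Cells with less Cma1 fell in other gates. Besides those 2, another 7 cells had at least 2 Cma1 UMIs. In the basophil gate were 2 of them, with 38 and 16 UMIs of Cpa3, 5 and 4 of Kit and at most 1 of Mcpt8, and 1 early progenitor-like cell had 6 of Cma1 with 47 of Cpa3, 8 of Kit and 17 of Mcpt8. The other 4 were natural killer-like cells. In that gate Cma1 had 21 UMIs in 13 of 209 cells, 13.01 CPM (8.05 to 19.9), and was seen in all 3 libraries, at 14.9, 21.9 and 6.21 CPM. Their intervals overlap (6.80 to 28.2, 9.47 to 43.2 and 1.69 to 15.9). In neutrophil-like cells it stood at 0.0398 CPM, below the interval of the natural killer-like cells. The genes nearest to Cma1 in detection were natural killer genes: Klra4 (phi 0.15), Klri2 (0.14) and Ncr1 (0.11), over 36 cells with Cma1. Granzymes and Cma1 are related serine proteases that lie in the same cluster on chromosome 14. How reads that fit more than 1 gene were handled is not stated, so the value in natural killer-like cells is uncertain.

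Prg2 and Epx also rested on very few cells, which were found in all 3 libraries. Exactly 18 cells had at least 2 UMIs of each, 6 in library 1, 4 in library 2 and 8 in library 3, and they held 89.3% of the Prg2 UMIs and 89.8% of the Epx UMIs. The 12 cells with at least 5 Epx UMIs all had at least 5 of Prg2. The most Prg2 in a cell was 354 UMIs in library 1, 757 in library 2 and 1579 in library 3, which is 25.9%, 60.4% and 48.3% of the library's Prg2. In the cell with 1579, Prg2 made up 14.5% of all UMIs.

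These 18 cells had some of the eosinophil markers and some genes of granulocyte progenitors, and few of them had much of the basophil genes. They were picked on Prg2 and Epx, and the other genes were not used. Prg3, the homolog of the major basic protein, was in 17 of 18, Ear6, an eosinophil ribonuclease, in 9, Siglecf in 6 and Il5ra, the receptor of IL-5, in 4. Ccr3, the eotaxin receptor of mature eosinophils, and Alox15 were in none of them. Cebpe, a factor of granulocyte maturation, was in 13, and Mpo, a gene of granulocyte progenitors, in 17. Outside these cells and the basophil gate, Cebpe was in 30.1% of cells and Mpo in 51.3%. Cebpe stood at 671 CPM in the 18 cells and 124 CPM outside, Mpo at 3684 and 1083 CPM and Ctsg at 1254 and 406 CPM. Elane was no higher, at 1205 and 1234 CPM, and 72 of its 124 UMIs in the 18 cells came from 1 cell. Mcpt8 was in 13 of 18 with a median of 2 UMIs, against a median of 55 in the basophil gate, and cells with 66 (a called doublet) and 56 UMIs held most of it. Cpa3 was in 10 of 18 with a median of 1 UMI, against 14 in the gate, and cells with 59, 46, 26 and 21 UMIs held most of it. Fcer1a was in 1. Of the 18 cells 5 were called doublets, and 3 of those were in library 1.

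By gate, 6 of these cells were eosinophil-like, 3 in library 1 and 3 in library 3, with 62100 CPM of Prg2 and 4509 CPM of Epx. Library 2 had none, and 0 of 9602 allows a share of up to 0.0312%. Prg2 in the basophil gate stood at 13.8, 1102 and 388 CPM in libraries 1, 2 and 3, but 757 of the 761 UMIs in library 2 came from 1 cell, which had 66 of Mcpt8 and was called a doublet, and 333 of the 335 in library 3 from another, which had 2 of Mcpt8. Prg3 had 88 UMIs in the gate, of which those 2 cells held 21 and 49. The eosinophil list counted 4 of 6 genes as higher in the gate, but Ear1 and Ear6 did so on 1 and 2 UMIs, and Siglecf was at 16.2 CPM in the gate and 2.88 CPM elsewhere, and Ccr3 at 6.81 and 4.99 CPM. Ear2, another ribonuclease, was at 0.851 CPM in the gate and 12.6 CPM elsewhere.

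Elsewhere Prg2 was thin. Of the 571 cells with it, 92.1% had 1 UMI. It was seen in 0.598% of all cells in library 1, 0.979% in library 2 and 3.51% in library 3. Its level over all cells was also the highest in library 3 (10.4, 13.6 and 22.6 CPM). The cells with at least 2 UMIs each of Prg2 and Epx held 92.0%, 91.7% and 87.3% of these UMIs. The CPM over all cells is thus not the level outside them. Without library 3 Prg2 was in 0.736% of cells, against 1.54% with that library. In non-blood cells it stood at 0.206, 0.712 and 4.18 CPM, in the same order of libraries. Epx was seen in 60 cells, of which 19 (31.7%, 20.3 to 44.96) had Prg2, 25 (41.7%, 29.1 to 55.1) had Mcpt8 and 16 had Cpa3. That order turned at 2 UMIs or more, where 94.7% of 19 Epx cells had Prg2 and 52.6% had Mcpt8. The nearest gene to Epx outside the set was Prg3 (phi 0.19), then Rnase12 (0.10) and Gm11697 (0.07). For Prg2 no gene outside the set came above 0.08 (Tnfrsf17, then Lap3 and Gfer), which in such sparse counts is no finding. Prg2 and Epx had a phi of 0.0985 with each other.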

How the data were processed

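The deposited table holds raw UMI counts per gene and cell barcode, written by Cell Ranger 7.1.0 per the file headers, on GRCm39 per the submitters' processing notes. How cells were called and how reads that fit several genes were handled is not stated in the labels or headers. The counts were used as deposited, summed over cells and given as CPM (per 1000000 UMIs). Each gate is the marker list with the highest share of a cell's UMIs, scaled to the 100 cells richest in that list, if at least 3 markers were seen and the score was at least 0.1. The members, lists and scoring were chosen with earlier results of these data known. Doublets were called per library (951, 450 and 506 cells) by scrublet (scanpy 1.11.5, 6% expected) and kept, with an alternative without them. Each group has 1 library and no suffix has a label, so no test was run. Intervals are exact Clopper-Pearson (shares) or Poisson (UMIs) at 95% and cover counting error only; a count of 0 allows 3. Named genes are the 7 genes, the 3 nearest by phi for each and the 4 with the highest CPM in the basophil gate from each of 10 lists; Lat, Btk, Lyn, Syk, Ptgs1, Cebpe, Cebpa, Irf8, Ndst2, Ear1, Ear6, Il5ra, Mki67, Mcpt4, Tpsb2 and Tpsab1 were added after their values were seen. Folds against a group under 3 UMIs use 3. The phi and fold steps were tested on simulated data. Tools were R 4.3.3 with edgeR 4.0.16 (TMM factors), and pandas 2.3.3, scipy 1.17.1 and numpy 2.4.6 under Python 3.11.15.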

Additional observations from a re-analysis of the deposited data

How the results depend on the processing

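Few libraries, few cells (2 mast cell-like and 6 eosinophil-like) and depth limit these values. No paired analysis was possible because no test was made and each group has 1 library. Without called doublets the basophil gate held 86.9% of Mcpt8, 89.7% of Prss34, 80.1% of Cpa3 and 92.3% of Fcer1a UMIs, with Mcpt8 at 13112 and Prss34 at 17087 CPM. With the best list at least 2 times the next, it held 80.8%, 83.2%, 69.6% and 86.1%, at 15027, 19613, 3089 and 528 CPM, and Cpa3 stood 1.48-fold higher in library 2 than in library 1. With 1 more marker required it held 83.5% of Mcpt8 and 86.5% of Prss34. At 2 UMIs or more, 59.2% of Mcpt8 cells had Prss34, 81.0% of Prss34 cells had Mcpt8, 71.3% of Cpa3 cells had Mcpt8, 95.2% of Fcer1a cells had Mcpt8 and 93.1% had Cpa3, and 94.7% of Epx cells had Prg2. In cells thinned to 1000 UMIs, 52.6% of Mcpt8 cells had Prss34, 53.1% of Prss34 cells had Mcpt8, 71.7% of Cpa3 and 91.8% of Fcer1a cells had Mcpt8, and 71.4% of Epx cells had Prg2. Co-detection thus depends on the cutoff, and fewer cells with a lone UMI enter at the higher one by construction. With TMM factors library 2 exceeded library 3 by 1.51-fold for Mcpt8 and 1.30-fold for Prss34 and library 1 by 1.51-fold for Cpa3, and with median-of-ratios size factors by 1.52-fold, 1.30-fold and 1.52-fold. In gate cells without Kit or Cd34, an alternative chosen after seeing the data, these were 1.40-fold for Mcpt8 and 1.62-fold for Cpa3. With genes of at least 1 UMI, 2624 of 14397 (18.2%) were at least 2-fold apart between libraries. The cause of these shifts was not tested. Leaving out each library in turn, the gate held 82.1% to 86.6% of Mcpt8, 86.1% to 88.2% of Prss34, 76.1% to 76.8% of Cpa3 and 88.1% to 89.2% of Fcer1a UMIs, at 12088 to 14460, 16218 to 18238, 2529 to 2955 and 347 to 590 CPM, and 47.7% to 56.0% of Cpa3 cells had Mcpt8. Of the values that answer a comparison 70 stayed within their interval and 57 did not. The order of 2 of them turned: Epx cells had Prg2 less often than Mcpt8 as reported (31.7% and 41.7%), but more often at 2 UMIs (94.7% and 52.6%) and when thinned (71.4% and 42.9%).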
